A study of Mus musculus with 6 samples.

Results

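The axon guidance genes of 4T1 cells were compared between cells with an shRNA against NFAT1 and cells with a control shRNA. The set was chosen by gene name. It took semaphorins, plexins, A and B ephrins and their Eph receptors, both neuropilins, the slits with their Robo receptors, and netrins with their receptors. It held 66 of the 18193 genes that the array's probe sets name singly: 20 semaphorins, 9 plexins, 2 neuropilins, 8 ephrins, 13 Eph receptors, 3 slits, 4 Robo receptors, 2 netrins and 5 netrin receptors. 4T1 is a mouse mammary carcinoma line that forms metastasising tumours in mice. Of 6 Affymetrix arrays, 3 held RNA of cells transduced with NFAT1 shRNA and 3 RNA of cells transduced with control shRNA, and all cells had passed 10 days of selection before collection. NFAT1 is a calcium-activated transcription factor whose gene is Nfatc2. The labels name neither the shRNA sequences nor how many shRNAs or clones were used, and all cells were of 1 line. Nothing in them tells if replicate arrays trace back to separate cultures. The p-values therefore reflect variation among these samples only, and that variation may be technical.

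Axon guidance genes were found as cues that steer growing nerve fibres, and most of them also act in epithelia, vessels and tumours. Semaphorins are secreted or membrane-bound ligands that signal through plexins. Secreted class 3 semaphorins mostly bind a neuropilin, which forms a receptor with an A-class plexin and also serves as a co-receptor for the vascular growth factor VEGF. Ephrins are ligands held on the cell surface, and Eph receptors are receptor tyrosine kinases on the neighbouring cell, so both sides of a contact can be signalled to. Slits act through Robo receptors, and netrins through Dcc, neogenin and the Unc5 receptors. In mammary gland development netrin, slit and Eph signals take part in the adhesion and order of the epithelial layers.

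Values are log2 signals as the authors deposited them, with array medians of 5.42 to 5.48. A difference is the NFAT1 shRNA mean minus the control mean. A gene was read by its brightest probe set, and signals of different genes cannot be ranked, because each probe set has its own brightness. Below the array medians, differences are compressed toward the background. Changed means an adjusted p under 0.05 by limma over all genes. The probe sets of Nfatc2 did not all go one way, and 4 of 6 were lower on average with NFAT1 shRNA. On the one with the smallest p the arrays read 5.15, 5.43 and 5.29 with NFAT1 shRNA, against 6.05, 6.18 and 5.91 with control shRNA (adjusted p = 0.0707 by limma over all probe sets). The brightest, by which other genes were read, was higher on every NFAT1 shRNA array. It read 6.19, 6.48 and 6.09 with NFAT1 shRNA, against 5.92, 5.92 and 5.86 with control shRNA (adjusted p = 0.251). The groups are therefore named by their labels. All 7 epithelial markers had a mean of at least 7 in a group. The log2 of the sum of their unlogged signals was 14.85 to 14.99 on NFAT1 shRNA arrays and 14.87 to 14.88 on control arrays. The brightest markers rule this sum, so the lower Krt14 signal given below hardly enters it. Pecam1 and Cdh5 of endothelium, Ptprc of leukocytes, and Snap25 and Tubb3 of neurons had means below 4.5 in both groups. Means with NFAT1 shRNA and control shRNA were 5.96 and 5.66 for Kdr of endothelium, and 5.96 and 5.86 for Rbfox3 of neurons. In the glial list they were 6.11 and 5.90 for Sox10, 5.57 and 5.45 for Gfap, and 4.06 and 4.10 for S100b. Kdr, Cdh5 and Gfap were higher on all NFAT1 shRNA arrays. In each of the fibroblast, leukocyte and neuron lists 1 gene stood well above the array medians. Pdgfra averaged 7.71 with NFAT1 shRNA and 7.23 with control shRNA, Csf1r averaged 8.09 with NFAT1 shRNA and 8.26 with control shRNA, and Map2 averaged 7.79 with NFAT1 shRNA and 7.97 with control shRNA. No marker of the fibroblast, endothelial, leukocyte, neuron or glial lists changed.

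Of the 66 genes, 2 changed, where 0.511% of all genes did. The class 6 semaphorin gene Sema6d rose, as did 0.181% of all genes, and the Eph receptor gene Epha1 fell, as did 0.330%. The other 64 did not pass, among them Nrp1, which encodes neuropilin-1 and had the lowest difference of the set. The calls of Sema6d and Epha1 were lost when any control array was left out and when NFAT1 shRNA 2 was left out (adjusted p from 0.0597 to 0.277). Epha1 also lost its call without NFAT1 shRNA 3 (0.0749). When NFAT1 shRNA 1 was left out, 10 of the 66 passed, beside 18.4% of all genes. At an unadjusted p under 0.05 stood 14 of the 66, 9 higher and 5 lower, beside 17.1% of all genes (10.1% higher and 7.01% lower). The groups did not overlap for 19 genes, 11 higher and 8 lower, beside 22.8% of all genes (14.2% higher and 8.61% lower). In percent of the 66 these counts are 21.2% and 28.8%, near those of all genes. The median difference of the 66 was 0.09, beside 0.04 over all genes. A difference of at least 2-fold, called or not, was seen for 4 genes, Sema6d, Epha1, Nrp1 and the semaphorin gene Sema3c, beside 1.89% of all genes. Of the 66, 25 lay below the array medians in both groups and 26 had a mean of at least 7 in a group.

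**Figure D1:**
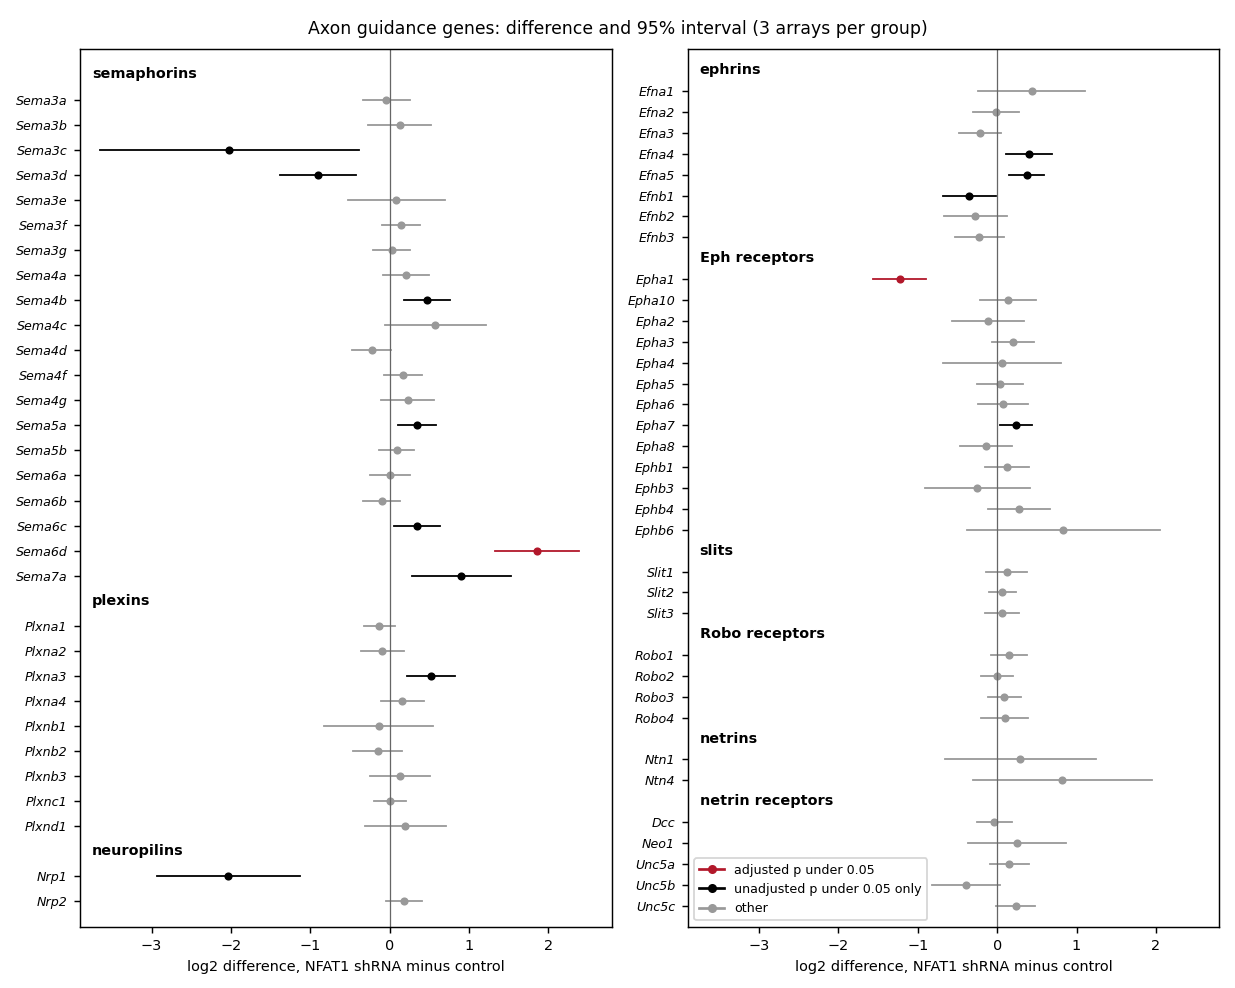
Difference in log2 signal, NFAT1 shRNA minus control, for each of the 66 genes by family, with the 95% interval from limma (3 arrays per group). Sema6d at 1.86 and Epha1 at -1.23, in red, had an adjusted p under 0.05, and 12 further genes, in black, had only an unadjusted p under 0.05.

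The stretch around the annotated start of the 2 changed genes and of Nrp1 is printed here because these 3 genes carry the differences described next. Each is the 250 bases before and 50 after a RefSeq start on GRCm38.p6. Sema6d has 2 such starts in the table, and the array does not tell which was used. Capitals mark GGAAA or TTTCC, the core letters of NFAT sites on either strand. TGANTCA, the letters of sites of AP-1, a frequent partner of NFAT, was also searched and is in none of the 4.
Sema6d, chr2:124089719-124090018, plus strand: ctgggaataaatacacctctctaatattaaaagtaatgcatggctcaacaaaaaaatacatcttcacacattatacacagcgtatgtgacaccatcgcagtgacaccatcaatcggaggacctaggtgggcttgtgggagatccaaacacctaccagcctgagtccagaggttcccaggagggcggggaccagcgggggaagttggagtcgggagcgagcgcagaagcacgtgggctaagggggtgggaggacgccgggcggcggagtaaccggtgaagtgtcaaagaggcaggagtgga
Sema6d, chr2:124653331-124653630, plus strand: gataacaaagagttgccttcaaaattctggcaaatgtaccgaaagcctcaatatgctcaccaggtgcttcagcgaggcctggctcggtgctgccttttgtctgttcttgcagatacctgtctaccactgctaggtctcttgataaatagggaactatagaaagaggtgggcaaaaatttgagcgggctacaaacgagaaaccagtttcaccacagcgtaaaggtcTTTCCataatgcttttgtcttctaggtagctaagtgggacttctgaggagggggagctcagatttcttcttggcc
Epha1, chr6:42373219-42373518, minus strand: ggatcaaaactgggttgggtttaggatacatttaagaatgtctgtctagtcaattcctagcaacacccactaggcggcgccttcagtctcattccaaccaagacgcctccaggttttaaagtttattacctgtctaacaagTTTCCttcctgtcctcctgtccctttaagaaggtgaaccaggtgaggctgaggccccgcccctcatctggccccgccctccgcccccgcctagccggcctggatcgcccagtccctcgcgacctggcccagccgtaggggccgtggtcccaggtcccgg
Nrp1, chr8:128358823-128359122, plus strand: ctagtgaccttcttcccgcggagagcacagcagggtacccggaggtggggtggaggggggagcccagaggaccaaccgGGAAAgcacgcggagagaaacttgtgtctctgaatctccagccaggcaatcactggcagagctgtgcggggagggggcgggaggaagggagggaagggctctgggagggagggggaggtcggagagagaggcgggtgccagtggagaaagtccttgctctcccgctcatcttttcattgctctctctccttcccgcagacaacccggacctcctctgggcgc
The NFAT core letters occurred 1 time in the second Sema6d window, 1 time in the Epha1 window and 1 time in the Nrp1 window, and 0 times in the first Sema6d window. They occurred in 61.3% of 32851 windows of this length over all genes and in 56.2% of 73 windows of 57 of the genes described here. TGANTCA occurred in 7.81% of all windows. A match is only a match of letters, and none of it tells whether a factor binds there.

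Among the 4 class 6 semaphorins, which are membrane-bound ligands of A-class plexins, 1 rose, 0 fell and 3 did not pass. Sema6d, whose product binds plexin-A1 in the developing heart, read 7.62, 7.39 and 6.73 on the NFAT1 shRNA arrays, against 5.40, 5.39 and 5.39 on the control arrays. The control arrays were almost equal and lay just below the array medians, and every NFAT1 shRNA array stood at least 1.34 above them. Sema6d rose by 1.86 ± 0.22 (SE, n = 3 per group; adjusted p = 0.0346 by limma), a 3.62-fold higher signal, which can be understated because the control level is dim. This rise was carried by the brightest probe set. The 3 other Sema6d probe sets were higher by 0.15 to 0.23, lay below 5 on every array and overlapped between groups. With the mean of the 4 probe sets the difference was 0.61 and did not pass (adjusted p = 0.0700). Sema6c, another member of the class, read 6.75, 7.06 and 6.67 with NFAT1 shRNA, against 6.51, 6.40 and 6.52 with control shRNA. These groups did not overlap, and the difference of 0.35 did not pass (adjusted p = 0.240). Its 2 other probe sets overlapped and differed by 0.08 and 0.01. With probe sets whose names end in _x_at, _s_at or _a_at left out, Sema6c is read by the one that differed by 0.01. Sema6a and Sema6b differed by 0.01 and -0.10.

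Class 3 semaphorins are secreted, and none of 7 changed. Sema3c, a ligand of both neuropilins that guides vessel and heart outflow cells, read 5.70, 6.55 and 8.28 with NFAT1 shRNA, against 8.10, 9.53 and 8.96 with control shRNA. NFAT1 shRNA 3 lay within the control range and the other two lay far below it. The difference was -2.02 ± 0.68 (SE; adjusted p = 0.234), with a 95% interval from -3.65 to -0.39. The second, dimmer Sema3c probe set separated the groups without overlap, with a difference of -0.73. Sema3d was lower on all NFAT1 shRNA arrays, at 3.07, 2.88 and 3.22, than on the control arrays, at 3.77, 4.39 and 3.72 (adjusted p = 0.133). It lay below the array medians throughout, and its second probe set differed by 0.04. Sema3f, a ligand of neuropilin-2, averaged 9.88 ± 0.14 with NFAT1 shRNA and 9.73 ± 0.08 with control shRNA (SD, n = 3 each). Sema3e, which binds plexin-D1 without a neuropilin, averaged 9.25 ± 0.45 with NFAT1 shRNA and 9.17 ± 0.30 with control shRNA. For both, the groups overlapped. Sema3a, Sema3b and Sema3g were dim and differed by -0.04 to 0.13.

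The membrane-bound class 4, 5 and 7 semaphorins held 9 genes, of which none changed. A higher mean with NFAT1 shRNA was seen for 8 of them, beside 59.3% of all genes. Sema7a, a lipid-anchored semaphorin that signals through integrins and plexin-C1, read 8.17, 8.69 and 7.82 with NFAT1 shRNA, against 6.94, 7.64 and 7.38 with control shRNA. The groups did not overlap, and the difference was 0.91 ± 0.26 (SE; adjusted p = 0.196). The second, dimmer Sema7a probe set was higher by only 0.15, with overlapping groups. Sema4b read 8.72, 8.82 and 8.48 with NFAT1 shRNA, against 8.06, 8.26 and 8.28 with control shRNA. All NFAT1 shRNA arrays were higher, by 0.47 on average (adjusted p = 0.164). Sema4c, a plexin-B2 ligand, differed by 0.58 with overlapping groups, as both groups spread widely (SD 0.42 with NFAT1 shRNA and 0.39 with control shRNA). Sema4d, the plexin-B1 ligand also known from lymphocytes, was the exception in direction. It averaged 8.21 ± 0.16 with NFAT1 shRNA and 8.43 ± 0.04 with control shRNA (SD, n = 3 each), and its difference of -0.22 did not pass. Its other probe sets overlapped between groups, with differences of 0.17 and -0.08. Sema5a differed by 0.35 on its brightest probe set, below the array medians, and 2 of its 4 probe sets were higher and 2 lower.

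**Figure D2:**
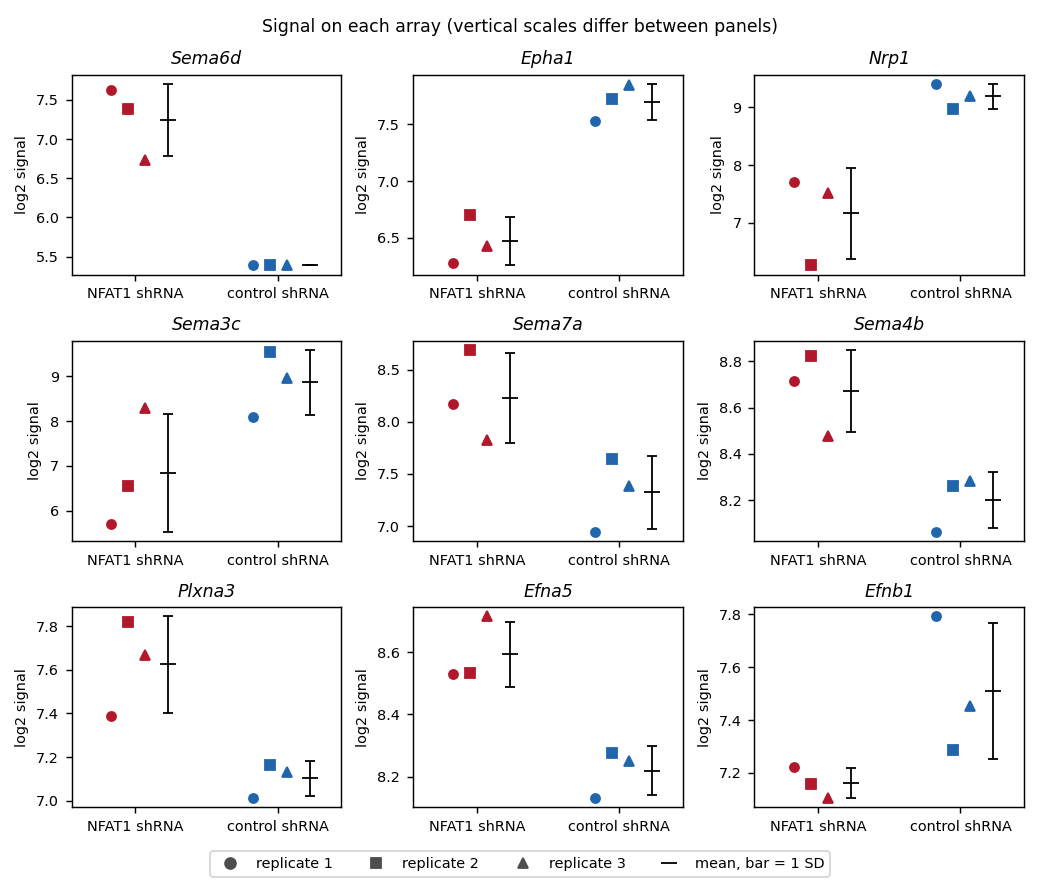
Log2 signal on each array for 9 genes, NFAT1 shRNA in red and control shRNA in blue, with symbols for replicate numbers and black bars for the mean and 1 SD; vertical scales differ. The 3 NFAT1 shRNA arrays of Sema6d (6.73 to 7.62) stand above the controls, those of Epha1 (6.28 to 6.70) and Nrp1 (6.26 to 7.71) below them, and NFAT1 shRNA 3 of Sema3c (8.28) lies within the control range.

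The neuropilins are the ligand-binding partners of A-class plexins, and neither passed. Nrp1 read 7.71, 6.26 and 7.52 with NFAT1 shRNA, against 9.41, 8.98 and 9.20 with control shRNA. Every NFAT1 shRNA array was lower than every control array, and NFAT1 shRNA 2 was far lower than the other two. The difference was -2.03 ± 0.38 (SE; adjusted p = 0.0892), with a 95% interval from -2.93 to -1.13, and the signal was 24.4% of control. All 4 Nrp1 probe sets were lower without overlap between groups, with differences from -2.03 to -1.36. The exact permutation test of 3 arrays against 3 gave p = 0.1 (2-sided), the smallest it can give. The adjusted p was 0.00992 without NFAT1 shRNA 1, where 18.4% of all genes passed, and from 0.0640 to 0.404 without any other array. Krt14, a basal keratin gene from the list of epithelial markers, read 9.38, 7.46 and 8.40 on the NFAT1 shRNA arrays, against 10.67, 10.38 and 10.56 on the control arrays (difference -2.12, adjusted p = 0.123). NFAT1 shRNA 2 was lowest for both genes, and the part of basal markers in the Nrp1 difference was not tested. The name of the Krt14 probe set ends in _x_at, so its probes may also match other genes. Krt18, of the same list, was higher on all NFAT1 shRNA arrays, by 0.27 (adjusted p = 0.226 by limma). The remaining epithelial markers overlapped between groups. In bulk RNA, fewer cells of a type and less RNA per cell cannot be told apart. Nrp2, which encodes the other neuropilin, read 10.65, 10.72 and 10.69 with NFAT1 shRNA, against 10.39, 10.66 and 10.47 with control shRNA. Its difference was 0.18, with a 95% interval from -0.05 to 0.40, and its 4 probe sets were split, 2 higher and 2 lower.

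**Figure D3:**
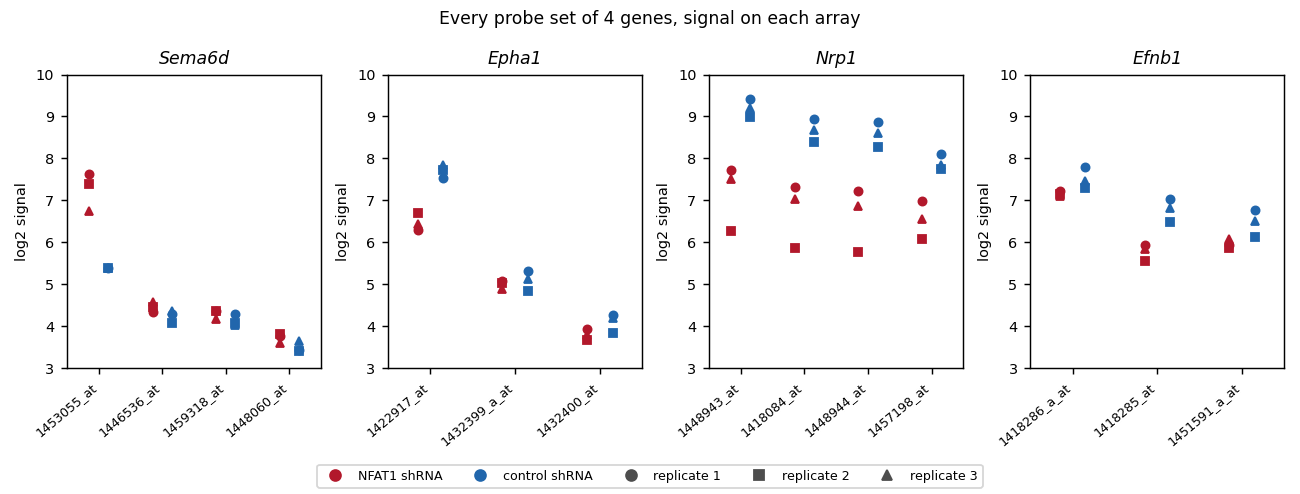
Log2 signal on each array for every probe set of Sema6d, Epha1, Nrp1 and Efnb1, NFAT1 shRNA in red on the left and control shRNA in blue on the right of each pair. All 4 Nrp1 and all 3 Efnb1 probe sets are lower on every NFAT1 shRNA array, while for Sema6d and Epha1 only the brightest probe set separates the groups.

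Plexins are the signalling receptors of semaphorins, and none of 9 changed. Plxna3, a partner of neuropilin-2, read 7.39, 7.82 and 7.67 with NFAT1 shRNA, against 7.01, 7.16 and 7.13 with control shRNA. The groups did not overlap, and the difference was 0.52 ± 0.13 (SE; adjusted p = 0.156). The second Plxna3 probe set was higher by 0.57 with overlapping groups. Plxna1 lay slightly lower on all NFAT1 shRNA arrays, at 7.68 to 7.79 against 7.80 to 7.95 in control cells, a difference of -0.13. Plxnb2, the receptor of several class 4 semaphorins, averaged 10.39 ± 0.17 with NFAT1 shRNA and 10.54 ± 0.17 with control shRNA (SD, n = 3 each). Its difference of -0.15 had a 95% interval from -0.46 to 0.16. Plxnb1 spread from 7.64 to 8.67 over the NFAT1 shRNA arrays and from 7.95 to 8.61 over the control arrays. Plxnc1, the plexin receptor of Sema7a, had means of 3.82 and 3.81 with NFAT1 shRNA and control shRNA, below the array medians in both groups.

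Ephrins are the ligands of Eph receptors, with a lipid anchor in class A and a transmembrane part in class B. None of the 5 A ephrins and 3 B ephrins changed. The 3 B ephrins all had a lower mean with NFAT1 shRNA, as did 7408 of all 18193 genes. Efnb1 read 7.22, 7.16 and 7.11 with NFAT1 shRNA, against 7.79, 7.29 and 7.45 with control shRNA. Its groups did not overlap, and the difference was -0.35 ± 0.14 (SE; adjusted p = 0.277). On the second Efnb1 probe set the arrays read 5.94, 5.56 and 5.84 with NFAT1 shRNA, against 7.02, 6.49 and 6.81 with control shRNA, a wider difference of -0.99. The third had a difference of -0.51, so all 3 went one way without overlap, although none passed over all probe sets. Efnb2, the Ephb4 ligand of arteries, averaged 10.70 ± 0.32 with NFAT1 shRNA and 10.98 ± 0.10 with control shRNA (SD, n = 3 each). NFAT1 shRNA 1 of Efnb2, at 11.06, lay within the control range. Without it the difference was -0.46 and passed (adjusted p = 0.0246), as did 18.4% of all genes. With the mean of the Efnb2 probe sets over all arrays the difference was -0.11 (adjusted p = 0.731). Of the A ephrins, Efna5 read 8.53, 8.53 and 8.71 with NFAT1 shRNA, against 8.13, 8.28 and 8.25 with control shRNA, without overlap (difference 0.37, adjusted p = 0.157). Efna4 was also higher without overlap, by 0.40 (adjusted p = 0.210). Efna1, a ligand of Epha2, read 8.32, 9.43 and 9.01 with NFAT1 shRNA, against 8.30, 8.73 and 8.43 with control shRNA. NFAT1 shRNA 1 was at the control level and the other two were above it.

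Of the 13 Eph receptors, 1 fell, 0 rose and 12 did not pass. Epha1, the first Eph receptor described, is found mainly in epithelia. It read 6.28, 6.70 and 6.42 with NFAT1 shRNA, against 7.53, 7.72 and 7.85 with control shRNA. The groups were 0.83 apart at their nearest arrays. Epha1 fell by 1.23 ± 0.14 (SE, n = 3 per group; adjusted p = 0.0310 by limma), to 42.6% of the control signal. Its 2 other probe sets lay below the array medians and had differences of -0.09 and -0.31 with overlapping groups. With the mean of the 3 probe sets the difference was -0.54 and did not pass (adjusted p = 0.0876). Epha2, a receptor of Efna1 that is common in carcinoma, read 11.09, 10.41 and 10.46 with NFAT1 shRNA, against 10.85, 10.66 and 10.80 with control shRNA. NFAT1 shRNA 1 was above all controls and the other two below all controls, so the mean difference of -0.12 describes no single array. Epha4 had the same order, at 8.03, 6.997 and 6.78 with NFAT1 shRNA, against 7.28, 7.13 and 7.21 with control shRNA. Ephb6, whose product lacks kinase activity, read 5.81, 7.48 and 7.50 with NFAT1 shRNA, against 5.57, 6.63 and 6.09 with control shRNA. Its difference of 0.83 did not pass (adjusted p = 0.417), and NFAT1 shRNA 1 lay within the control range. Ephb4, the receptor of Efnb2, differed by 0.27 (95% interval from -0.12 to 0.67) and Ephb3 by -0.25 (-0.91 to 0.41). Epha7, below the array medians, differed by 0.24 on its brightest probe set, with 2 of 4 probe sets higher.

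Slits and Robo receptors were dim, and none of 7 changed. Slit1 read 6.57, 6.32 and 6.25 with NFAT1 shRNA, against 6.30, 6.18 and 6.30 with control shRNA. The differences of the 3 slits ran from 0.06 to 0.12. Those of the Robo receptors ran from -0.000859 for Robo2 to 0.15 for Robo1. A dimmer Robo1 probe set read 3.674, 4.534 and 3.5005 with NFAT1 shRNA, against 2.651, 3.282 and 3.027 with control shRNA. Its groups did not overlap, its difference was 0.92 (adjusted p = 0.246 over all probe sets), and averaging the 3 Robo1 probe sets gave 0.40 (adjusted p = 0.224). All means of Robo1, Robo2 and Robo4 lay below the array medians.

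Netrins and their receptors held 7 genes, none of which changed. Ntn1, which encodes netrin-1, read 8.40, 9.36 and 9.40 with NFAT1 shRNA, against 8.11, 9.41 and 8.78 with control shRNA. The controls alone spanned 1.31, and the difference of 0.29 had a 95% interval from -0.66 to 1.24, so a rise of 2-fold was not excluded. Ntn4, a netrin of basement membranes, read 4.76, 5.36 and 6.68 with NFAT1 shRNA, against 4.47, 5.08 and 4.79 with control shRNA. NFAT1 shRNA 3 stood alone above the controls by more than 1 (adjusted p = 0.395). Neo1, which encodes neogenin, averaged 9.38 ± 0.47 with NFAT1 shRNA and 9.13 ± 0.29 with control shRNA (SD, n = 3 each). Another Neo1 probe set was higher without overlap by 0.33, and 2 of its 5 probe sets were lower. Unc5b, a netrin receptor of vessels, read 8.30, 8.81 and 8.96 with NFAT1 shRNA, against 8.95, 9.18 and 9.12 with control shRNA. Only NFAT1 shRNA 3 reached the control range, and the difference of -0.39 did not pass (adjusted p = 0.319). Without NFAT1 shRNA 1 it was -0.20. The second Unc5b probe set was lower on every NFAT1 shRNA array, with a difference of -0.58 (adjusted p = 0.185 over all probe sets). Dcc differed by -0.04 and lay close to the array medians.

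Distances between arrays of one group were uneven, over all genes as for this set. Over all genes, control 3 correlated at 0.997 with controls 1 and 2, which correlated at 0.993 with each other. NFAT1 shRNA 1 correlated at 0.985 and 0.984 with NFAT1 shRNA 2 and 3, which correlated at 0.994 with each other. Of 12 genes of the set with a control range of at least 0.5, control 3 lay between controls 1 and 2 for 11, the exception being Sema3d. The NFAT1 shRNA arrays spanned 1 or more for 7 genes of the set, and NFAT1 shRNA 1 was the highest or the lowest in all 7. These were Sema3c, Plxnb1, Nrp1, Efna1, Epha4, Ephb6 and Ntn4. NFAT1 shRNA 1, 2 and 3 lay within the control range for 24, 14 and 21 of the 66 genes, beside 38.9%, 26.7% and 31.6% of all genes. Sema6d, Epha1 and Nrp1 were outside the control range on each of the 3 arrays. Without NFAT1 shRNA 1 and control 3 together, Sema6d rose by 1.67 (adjusted p = 0.0447) and Epha1 fell by 1.06 (adjusted p = 0.0462), and these were again the 2 genes that passed, beside 2.24% of all genes.

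**Figure D4:**
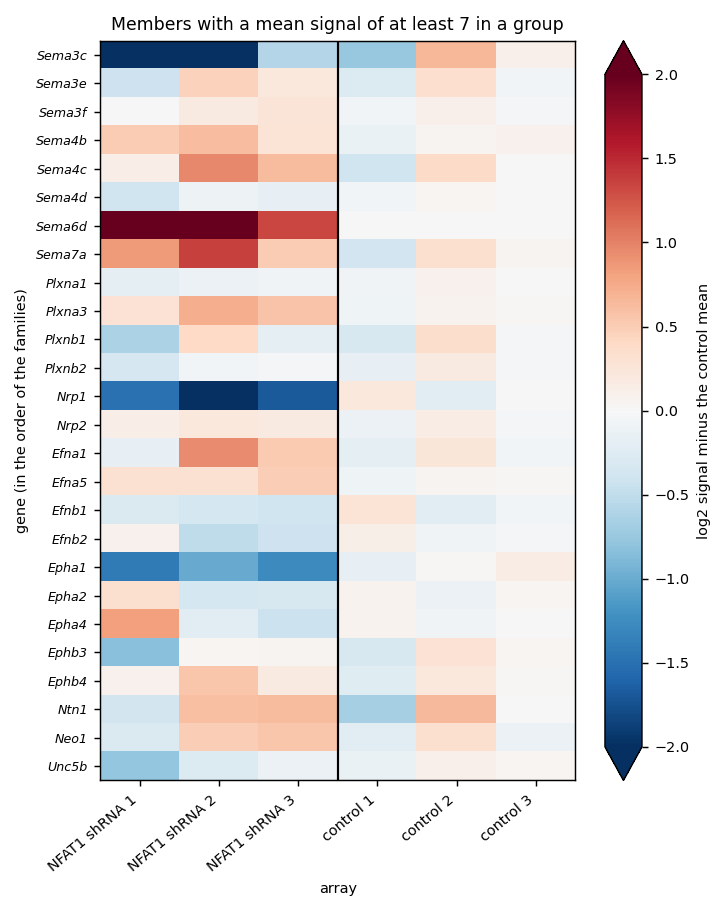
Log2 signal of each array minus the gene's control mean, for the 26 genes with a mean of at least 7 in a group, with the 3 NFAT1 shRNA arrays on the left and the 3 control arrays on the right. Sema6d is high, and Nrp1 and Epha1 are low, on all 3 NFAT1 shRNA arrays, while Epha2, Epha4 and Ephb3 differ between NFAT1 shRNA 1 and the other two.

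Of 60 further genes of axon guidance signalling, mostly intracellular effectors, 56 were measured and 0 changed by limma, while 8 were higher and 2 lower at an unadjusted p under 0.05. That is 17.9%, beside 17.1% of all genes. Their median difference was 0.10, beside 0.04 over all genes. Chn1, a Rac regulator that acts downstream of Epha4, read 7.13, 7.17 and 7.41 with NFAT1 shRNA, against 6.52, 6.65 and 6.60 with control shRNA (difference 0.64, adjusted p = 0.0663). L1cam, an adhesion molecule that binds Nrp1 in the Sema3a receptor, read 6.88, 7.58 and 6.90 with NFAT1 shRNA, against 8.10, 8.43 and 8.25 with control shRNA (difference -1.14, adjusted p = 0.0858). Ngef, which encodes the Eph-binding protein ephexin, read 5.79, 7.07 and 7.40 with NFAT1 shRNA, against 4.95, 5.21 and 4.88 with control shRNA (difference 1.74, adjusted p = 0.143). For these 3 genes the groups did not overlap, and none of them passed.

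The 5 genes outside the set whose signal followed Sema6d most closely over the 6 arrays, among genes with a mean of at least 6, were Ripor3, Epsti1, Antxr2, Myg1 and Nat2. Their Pearson correlations were 0.995, 0.993, 0.991, 0.990 and 0.990. With 2 groups of 3 arrays such values mostly restate the difference between groups. Epsti1 differed by 1.22 and Ripor3 by 0.22.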

How the data were processed

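RNA of 6 samples of 4T1 cells, 3 with NFAT1 shRNA and 3 with control shRNA, was measured on Affymetrix mouse arrays, and groups came from the labels. The log2 signals deposited by the authors came from RMA according to the submitters' processing notes. RMA corrects background, normalizes arrays by quantiles and summarises probe sets, and its version is not given in the sources used here. A shift of most genes would be hidden by the quantile step.

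Of 45037 probe sets, 34945 carried a single gene symbol in GEO's platform table, 932 carried several and were not used, and 9160 are unnamed here. Names were checked against RefSeq on GRCm38.p6, which changed 0 symbols. The 66 genes were read by 153 probe sets, and 20 genes had 1. The antisense transcript Plxna4os1 was left out. Of the genes with over 1 probe set, 28 of 46 had all in 1 direction (60.9%, beside 57.7% over all genes).

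Each gene was represented by its probe set of highest mean over the 6 arrays. The comparison used limma 3.58.1 (lmFit, eBayes; R 4.3.3) over 18193 genes, with Benjamini-Hochberg adjustment, no filter and no covariates, and all p-values are 2-sided. Tables were made with Python 3.11.15. Data were simulated with independent noise for 18193 genes, of which 200 were changed. There limma recovered 81% of log2 changes of 1 and 99% of changes of 2, with 16 false calls. Deviations that many genes of an array share were not simulated, so these shares may not hold for the real arrays. Precision is limited by the number of arrays.

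The named genes were those past the test, Sema6d and Nrp1, those with an unadjusted p under 0.05, and in each family the genes with the highest mean signal and with the largest difference. The first is a rule of choice and gives no order of expression. Others were chosen after their values were seen, for their role or array pattern. Members, lists and alternatives were chosen with earlier results of these data known. Of the marker and effector lists, those genes not measured singly were left out.

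Alternatives left out arrays or dim genes, changed the scaling or the probe set read, weighted arrays, used a trended and robust prior, or took replicate number as a block.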

Additional observations from a re-analysis of the deposited data

How the results depend on the processing

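The rise of Sema6d kept its sign in all 16 alternatives, from 0.61 to 2.11, and passed in 11. Averaging its probe sets gave 0.61 (adjusted p = 0.0700), and leaving out 1 array gave 1.67 to 2.11. The fall of Epha1 kept its sign in 16 (-1.35 to -0.54) and passed in 10. Nrp1 kept its sign in 16 and passed in 3, with array weights (-2.30, adjusted p = 0.00712), with the replicate number as a block (-2.03, adjusted p = 0.0136) and without NFAT1 shRNA 1. Leaving out 1 array gave -2.31 to -1.58 for Nrp1. The causes were not tested. The number of genes of the set that changed, 2, was 15 with array weights (18.6% of all genes), 6 with the replicate block (4.35%) and 0 with the mean of probe sets (0.374%, with 15 at an unadjusted p under 0.05). Leaving out 1 array gave 0 to 10. By limma 0 passed without control 1, 2 or 3 or without NFAT1 shRNA 2, where 11, 15, 12 and 13 had an unadjusted p under 0.05. Over all genes 93 changed, against 3380 with array weights, 792 with the replicate block, 3349 without NFAT1 shRNA 1, 407 without NFAT1 shRNA 1 and control 3, 2 without NFAT1 shRNA 2 and 0 without control 1, 2 or 3, where 1698, 2247 and 1761 had an unadjusted p under 0.05. Of the effector genes 0 changed, against 1 with quantile normalization again, 10 with array weights, 7 with the replicate block, 2 without NFAT1 shRNA 1 and control 3, and 0 to 13 when 1 array was left out. The median difference of the set stayed between 0.07 and 0.12. The sign turned for Nrp2 when probe sets were averaged (-0.0861) and for Ntn1 without control 1 (leaving out 1 array gave -0.0397 to 0.615). It also turned for Sema3f (-0.0415) without probe sets whose names end in _x_at, _s_at or _a_at. The brightest Sema3f probe set ends in _x_at, and the next, which ends in _a_at, was higher by 0.11. None of these genes passed in any alternative. With 1 array left out, a group has 2 arrays. Signals near the background limit what the dim semaphorins, slits and Robo receptors can show. Deviations from the group means correlated at 0.69, 0.53 and -0.04 between same-numbered arrays 1, 2 and 3, and NFAT1 shRNA 3 correlated best with control 2 (0.46), so the numbers were not taken to pair the samples.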
